A study of Mus musculus with 16 samples.

Results

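The 8 periportal zonation genes are Cyp2f2, Hal, Sds, Gls2, Cdh1, Aldh1b1, Ctsc and Hsd17b13, named as a set and matched by identifier to the deposited gene tables. All 8 of 8 were found among the 78317 genes listed, and all passed the filter on low counts, which left 14781 genes to test. Their levels were read in liver RNA sequencing libraries from wild type mice of the inbred C57BL/6J strain. The question of the series was what a high fat diet does to the liver of males and of females.

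The 16 libraries fall into 4 groups of 4. Females on the normal diet and males on the normal diet ate a chow in which fat gave 4.5% of the calories. Females on the high fat diet and males on the high fat diet ate a purified diet in which fat gave 60% of the calories. The mice of all 4 groups arrived at 6 weeks of age and stayed on their diet for 10 weeks, so they were of one age at the end. The diets come from different makers and can differ in more than fat. RNA came from powdered whole liver, in which fewer cells of a type and less RNA per cell cannot be told apart, and in which position within the lobule is lost. The labels give all libraries the same batch number. They do not say that the replicates of a group are separate animals, so the p-values measure only the spread between these samples.

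Blood enters the liver lobule at the portal tracts and drains at the central vein, and hepatocytes along this path carry out different tasks. Periportal hepatocytes, which receive oxygen-rich blood, are known for making glucose and urea and for breaking down amino acids. Pericentral hepatocytes are known for glutamine synthesis and much of drug metabolism, under Wnt signals from the endothelium of the central vein that also keep periportal genes low there. Of the set, Cyp2f2 encodes a cytochrome P450 that is a standard periportal marker. Hal (histidine ammonia-lyase), Sds (serine dehydratase) and Gls2 (the liver type glutaminase) open the breakdown of histidine, serine and glutamine. Aldh1b1 encodes a mitochondrial aldehyde dehydrogenase and Hsd17b13 a lipid droplet enzyme. Cdh1 encodes E-cadherin, the adhesion protein of epithelial cells, and Ctsc encodes cathepsin C, a lysosomal protease that activates the serine proteases of immune cells.

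Promoter sequences were found by symbol for 5 of the 8 genes (Aldh1b1, Hsd17b13, Cyp2f2, Ctsc and Hal) in a RefSeq table of build GRCm38.p6, which is not the build the reads were mapped to. The 4 printed here are those of Cyp2f2, the gene that changed with diet, and of Hsd17b13, Hal and Aldh1b1, which went up and down together between libraries. Each is the 200 bases that end 50 bases before the annotated start, 5′ to 3′ on the gene's strand. They lie at chr7:27119705-27119904 (plus strand) for Cyp2f2, chr5:103977439-103977638 (minus strand) for Hsd17b13, chr10:93488518-93488717 (plus strand) for Hal and chr4:45798772-45798971 (plus strand) for Aldh1b1. Capitals mark matches, on either strand, to TCAAAG, the core bound by the TCF/LEF factors of the Wnt pathway, and to AGGTCA, the half-site of many nuclear receptors.
Cyp2f2: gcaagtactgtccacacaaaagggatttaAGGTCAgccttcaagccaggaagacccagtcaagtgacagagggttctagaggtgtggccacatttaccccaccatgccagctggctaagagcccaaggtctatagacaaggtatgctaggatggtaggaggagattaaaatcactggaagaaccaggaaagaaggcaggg
Hsd17b13: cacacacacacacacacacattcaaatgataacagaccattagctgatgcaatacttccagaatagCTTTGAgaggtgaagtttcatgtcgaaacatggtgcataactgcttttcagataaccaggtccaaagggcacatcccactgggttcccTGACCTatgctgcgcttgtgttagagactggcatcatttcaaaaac
Hal: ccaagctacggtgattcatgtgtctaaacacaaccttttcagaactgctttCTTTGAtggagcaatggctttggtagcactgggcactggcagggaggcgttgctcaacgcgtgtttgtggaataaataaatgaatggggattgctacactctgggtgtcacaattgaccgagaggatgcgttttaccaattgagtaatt
Aldh1b1: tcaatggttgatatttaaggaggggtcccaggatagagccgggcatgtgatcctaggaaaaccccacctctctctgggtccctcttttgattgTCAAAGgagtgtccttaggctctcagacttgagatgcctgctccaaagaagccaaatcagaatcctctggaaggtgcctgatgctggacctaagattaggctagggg
The TCF/LEF core was in the windows of Aldh1b1, Hsd17b13 and Hal, and in 11.8% of 32851 promoter windows of the same length. The nuclear receptor half-site was in those of Hsd17b13 and Cyp2f2, and in 11.4% of all windows. The other letters searched, TGACG (a cyclic AMP response half-site, in 12.7% of windows) and GTTAAT (an HNF1 half-site, in 5.33%), were in 0 of the 5 windows of the set. No 2 of these motifs overlapped in the printed windows. A match describes the letters and shows no binding.

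Library totals ran from 22228115 to 41420589 expected counts, and the 8 genes held between 455 counts (Cdh1, lowest library) and 45799 counts (Cyp2f2, highest library). Values are given as CPM (counts relative to a library size corrected by TMM, a trimmed mean over genes). The 5 hepatocyte markers summed to between 57176 CPM, in a male on the high fat diet, and 116445 CPM, in a female on the normal diet, which goes with the liver label. In males on the high fat diet, replicates 2 and 3 were much closer to each other than any other libraries of 1 group. Their chi-square per gene was 4.07, against 20.9 for the next closest pair and 308 for replicates 1 and 3 of that group. The difference was above sampling noise, which does not show that they come from separate livers. They were counted as 2 libraries, and fits with both averaged into 1 are given where they matter. Correlations over the 16 libraries count them as 2 and were not repeated with the pair averaged. In that group Hal, Gls2, Aldh1b1 and Hsd17b13 were higher in replicates 2 and 3 than in replicates 1 and 4, and Cdh1 and Ctsc were lower. In males on the normal diet, replicate 2 held the highest value of its group for 8 of the 8 genes. Over all tested genes this library was the highest of its group for 23.2%, so results are given without it where it decides them.

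Measured per length, as TPM (reads over gene length, with the same sum in each library), the set spanned a wide range. Mean TPM over all libraries was 592 for Cyp2f2, 495 for Hsd17b13, 171 for Sds, 147 for Gls2, 90.6 for Ctsc, 72.8 for Hal, 36.4 for Aldh1b1 and 7.61 for Cdh1. Cyp2f2 was thus 191st and Cdh1 5739th among tested genes by mean TPM. In females on the normal diet, Cyp2f2 (558 ± 71.2 TPM, SD, n = 4) lay above Hsd17b13 (434 ± 39.9 TPM), with no library of either in the range of the other. In females on the high fat diet the order was turned, with Hsd17b13 at 555 ± 126 TPM above Cyp2f2 at 346 ± 15.6 TPM, again with the ranges apart. Males on the normal diet kept Cyp2f2 (896 ± 76.3 TPM) above Hsd17b13 (533 ± 109 TPM). In males on the high fat diet these were 567 ± 36.4 TPM and 459 ± 75.4 TPM, and their ranges overlapped. Below this pair, Sds and Gls2 overlapped as neighbours in each of the 4 groups. Aldh1b1 and Cdh1 were the lowest in each group, in that order and with their ranges apart.

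**Figure D1:**
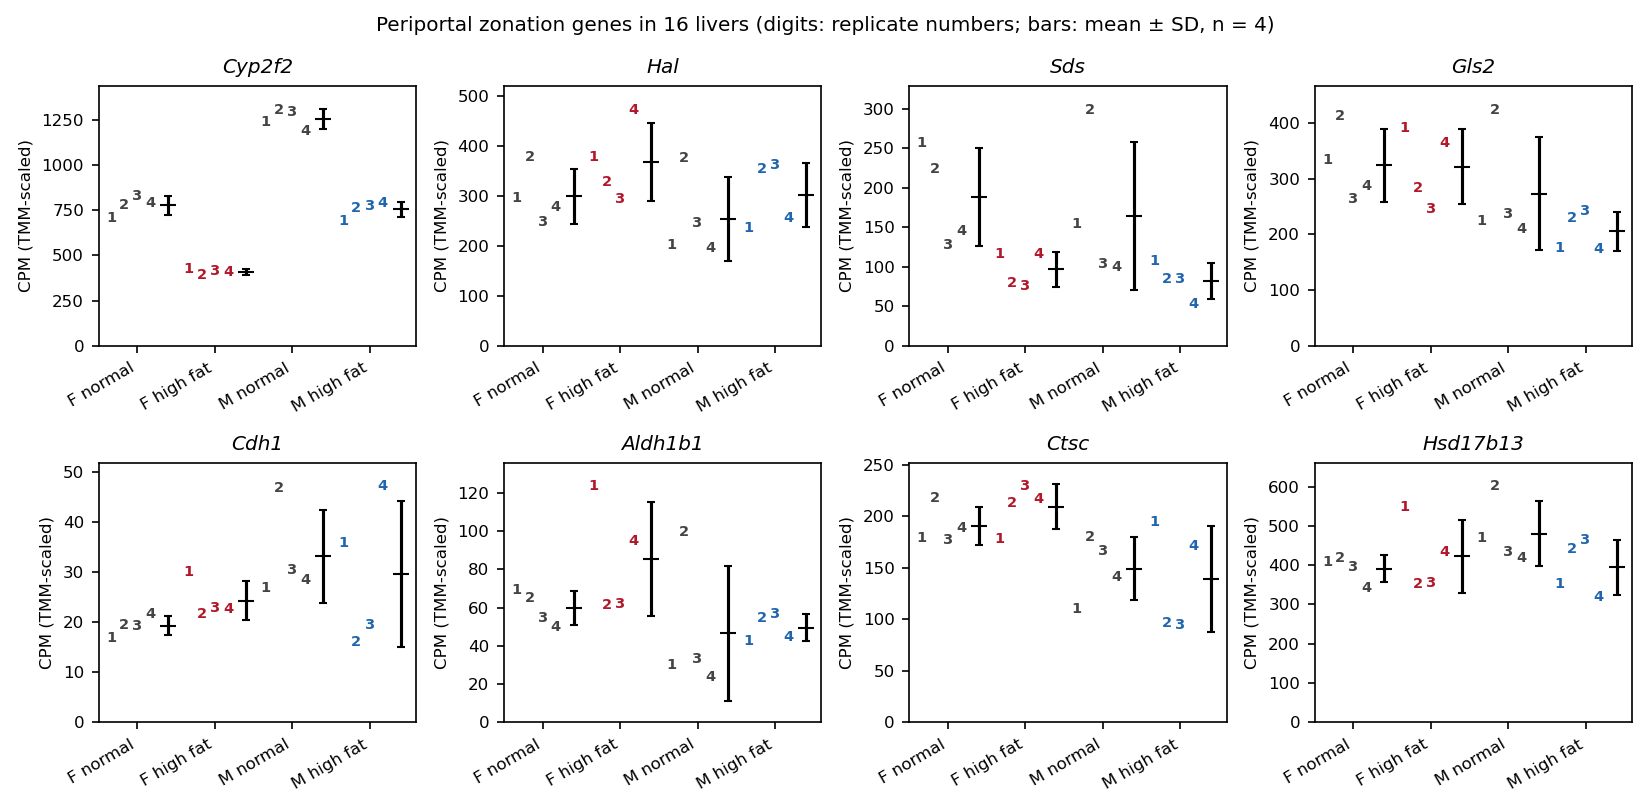
TMM-scaled CPM (vertical axes, each from 0) of the 8 genes in females (F) and males (M) on the normal and high fat diet (horizontal axis); digits are replicate numbers and black bars the mean ± SD of 4 libraries. Cyp2f2 has 4 tight groups, from 409 ± 15.1 CPM in females on the high fat diet to 1256 ± 54.0 CPM in normal diet males, while replicate 2 of the latter stands above its group for Sds, Gls2 and Aldh1b1.

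Cyp2f2 fell on the high fat diet in both sexes and was lower in females than in males on both diets. Between libraries, CPM is used from here on. In females on the normal diet, Cyp2f2 read 708, 778, 830.5 and 791 CPM in replicates 1 to 4, and on the high fat diet 426, 389.7, 412 and 409 CPM. Males read 1237, 1307, 1292 and 1189 CPM on the normal diet and 693, 765, 772 and 790.2 CPM on the high fat diet. All libraries on the high fat diet lay below all on the normal diet in each sex, and males on the high fat diet overlapped females on the normal diet. The log2 fold change with diet in edgeR's quasi-likelihood test was -0.92 ± 0.10 (SE) in females, a 1.90-fold lower level (adjusted p = 1.58e-05). In males it was -0.73 ± 0.09, a 1.66-fold lower level (adjusted p = 0.000115). Females against males gave -0.69 ± 0.09 on the normal diet (adjusted p = 0.000101) and -0.88 ± 0.10 on the high fat diet (adjusted p = 6.32e-06). Each of these calls held in 16 of 16 alternative settings. The difference between the diet changes of females and males was -0.19 ± 0.13 (95% interval -0.47 to 0.09, adjusted p = 0.591). Replicates of Cyp2f2 also varied little. The SD of its log2 CPM was 0.05 to 0.10 by group, where the median tested gene had 0.21 to 0.26.

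A P450 of the endoplasmic reticulum such as Cyp2f2 takes its electrons from cytochrome P450 reductase (Por) and cytochrome b5. Of the 3 genes listed for this (Por, Cyb5a and Cyb5r3), 1 fell in each sex. Por fell from 761 ± 65.0 CPM to 423 ± 74.8 CPM in females (log2 fold change -0.85 ± 0.13, adjusted p = 0.000619). In males Por fell from 624 ± 33.4 CPM to 387 ± 46.6 CPM (-0.69 ± 0.13, adjusted p = 0.00282). The summed hepatocyte markers were lower on the high fat diet as well. They ran from 103424 to 116445 CPM on the normal diet and from 79581 to 97457 CPM on the high fat diet in females, and from 85107 to 93769 CPM and from 57176 to 78942 CPM in males. The groups did not overlap in either sex. Alb, 1 of the 5 markers, alone held 3.73% to 9.17% of the counts of a library. Gene by gene, 0 of the 5 passed the test in females (median log2 fold change -0.04) and 1, Alb, in males (median -0.16). At an unadjusted p under 0.05 there were 2 in females and 1 in males, and DESeq2 called 1 in each. Pearson's r between log2 Cyp2f2 and the log2 sum was 0.07 over the 16 libraries and 0.35 with group means taken out. The former pools the sexes, and on each diet males had more Cyp2f2 and a lower hepatocyte sum than females. Over the 16 libraries Cyp2f2 also had r = -0.73 with the macrophage sum, -0.74 with the endothelial sum and -0.67 with the stellate sum. With group means out these were -0.20, -0.15 and 0.17. The part of these cell marker levels in the Cyp2f2 fall was not tested. An antisense transcript, Gm15883, overlaps the exons of Cyp2f2. Whether the counting used the strand is not given in the sources used here, but Gm15883 held 66.2 counts per library on average against 23559 for Cyp2f2.

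With diet, 1 of the 8 genes passed the test in females (adjusted p under 0.05), where 11.5% of all tested genes did, and 1 of 8 in males, where 11.4% did. Both calls are Cyp2f2. The same shares stand beside the diet counts of the other gene lists given here. The groups did not overlap for 3 of the 8 in females (Cyp2f2 and Sds lower, Cdh1 higher), beside 18.3% of all genes, and for 1 of the 8 in males (Cyp2f2 lower), beside 18.5%. With only 8 genes, counts of 1 to 3 are close to what these shares give and say nothing particular to the set. The median log2 fold change of the 8 was 0.12 in females and -0.23 in males, beside 0.00 and 0.01 over all tested genes. In the test of whether diet acted differently in the sexes, 0 of the 8 passed, where 0.677% of all genes did, and 0 of the 8 had an unadjusted p under 0.05. DESeq2 also called 0 of the 8 there. For any gene named here, a call in only 1 sex does not by itself show a difference between the sexes.

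**Figure D2:**
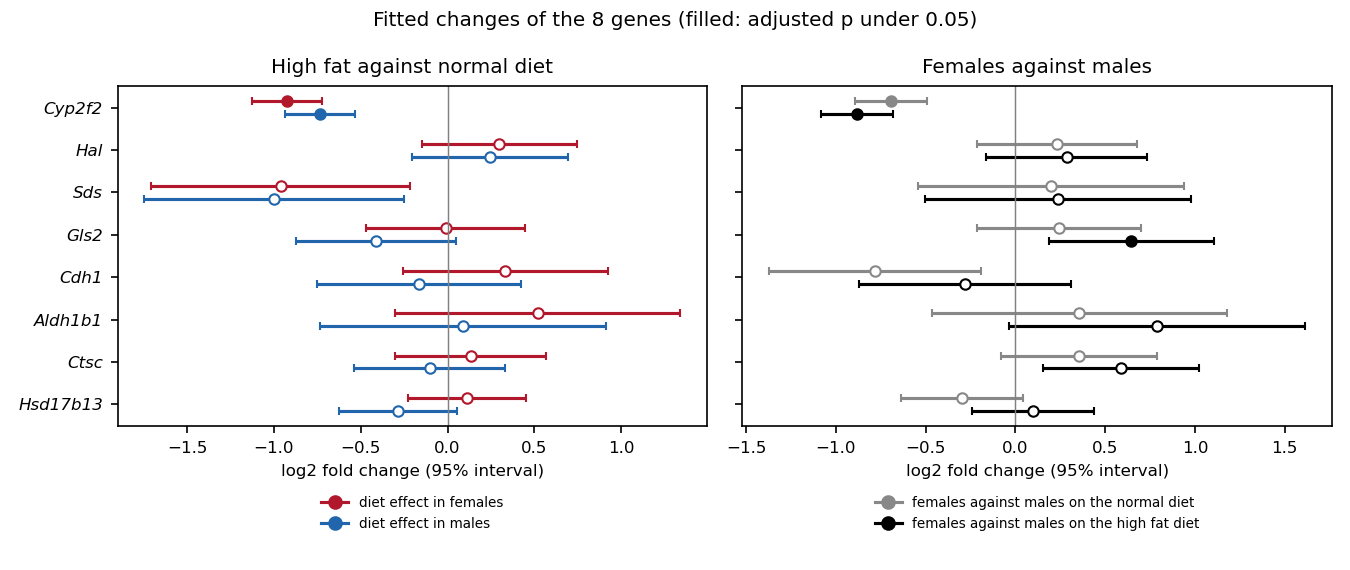
Log2 fold changes with 95% intervals (horizontal axes) of the 8 genes, for high fat against normal diet in females and males (left) and for females against males on each diet (right); filled points have an adjusted p under 0.05. Cyp2f2 is filled in 4 of 4 comparisons, from -0.69 to -0.92, and Gls2 is filled only for females against males on the high fat diet, at 0.65.

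Sds, whose enzyme turns serine into pyruvate and ammonia, had the largest fitted diet differences of the set but did not pass the test. In females Sds read 257, 224, 127 and 146 CPM on the normal diet and 116, 78.9, 76.0 and 116 CPM on the high fat diet. Male libraries read 154, 299, 104 and 100.2 CPM on the normal diet and 107, 83.9, 84.8 and 52.3 CPM on the high fat diet. The female groups did not overlap, though the normal diet group split into a higher and a lower pair. In males 3 of the 4 libraries on high fat diet were lower than any on the normal diet. The log2 fold changes were -0.96 ± 0.35 in females (95% interval -1.71 to -0.22, adjusted p = 0.089) and -0.999 ± 0.35 in males (-1.75 to -0.25, adjusted p = 0.0795). Fitted on the female libraries alone, the female difference passed the test (-0.95 ± 0.24, adjusted p = 0.0309). Its spread was wide: the SD of log2 CPM in males on the normal diet was 0.73, above that of 92.4% of tested genes. Without replicate 2 of males on the normal diet, the male difference was -0.54. Plbd2, on the other strand, overlaps exons of Sds and held 1278 counts per library against 4000 for Sds, so part of the Sds counts could come from it if strand was not used.

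Of 11 genes of serine and threonine metabolism listed beside Sds, 10 were tested. In females Cbs, the cystathionine beta-synthase that uses serine, rose (0.67 ± 0.18, adjusted p = 0.0262) and Gcat, of threonine breakdown, fell (-0.54 ± 0.13, adjusted p = 0.0162). In males Gcat fell (-0.51 ± 0.14, adjusted p = 0.0221). Each of these 3 calls was lost in 4 or 5 of 16 alternatives. Cbs in males gave -0.52 ± 0.18 (adjusted p = 0.0729), and the difference of its diet changes passed the test (1.19 ± 0.26, adjusted p = 0.0419). Sdsl, the closest relative of Sds by name, had group means of 3.99 to 6.44 CPM and was not called in females (0.21 ± 0.36) or males (-0.70 ± 0.36, adjusted p = 0.222).

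Hal, the enzyme that removes ammonia from histidine, was not called in any comparison. In females it read 295, 378, 248 and 278 CPM on the normal diet and 378, 328, 294 and 473 CPM on the high fat diet. In males the values were 201, 376, 247 and 195 CPM on the normal diet and 237, 354, 362 and 257 CPM on the high fat diet. The groups overlapped in both sexes. The fitted difference with diet was 0.30 ± 0.21 in females (95% interval -0.15 to 0.74, adjusted p = 0.389) and 0.25 ± 0.21 in males (-0.20 to 0.69, adjusted p = 0.494). Among 6 genes listed beside Hal for histidine use and transport (Uroc1, Amdhd1, Ftcd, Hdc, Slc7a5 and Slc38a3), 0 passed the test in either sex in edgeR. At an unadjusted p under 0.05 there was 1 in each sex, and DESeq2 called 1 in females and 0 in males.

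Gls2, which releases ammonia from glutamine, did not pass the test with diet and was higher, on the high fat diet, in females than in males. In females it read 333, 412, 263 and 286 CPM on the normal diet and 391, 284, 246 and 364 CPM on the high fat diet. In males it read 224, 424, 236 and 209 CPM on the normal diet and 176, 229.8, 242 and 174 CPM on the high fat diet. All females on the high fat diet lay above all males on it, and the normal diet groups overlapped. Females exceeded males on the high fat diet by 0.65 ± 0.22 (log2, adjusted p = 0.0446), a 1.56-fold higher level (321 ± 67.7 against 205 ± 35.4 CPM, SD, n = 4). This call was lost in 6 of 16 alternatives, with adjusted p up to 0.133. Those were the fit with no filter on low counts and the fits without replicate 1 or 4 of females, or without replicate 1, 2 or 4 of males, on the high fat diet. On the normal diet females against males gave 0.24 ± 0.22 (adjusted p = 0.480). With diet the differences were -0.01 ± 0.22 in females (95% interval -0.47 to 0.45) and -0.41 ± 0.22 in males (-0.87 to 0.05, adjusted p = 0.231). Without replicate 2 of males on the normal diet, at 424 CPM, the normal diet sex difference was 0.54 and the male diet difference -0.12, neither called. The female diet value near 0 changed sign with the setting, to 0.23 on log2(TPM + 1). Spryd4, on the other strand, overlaps exons of Gls2 and held 561 counts per library against 8389.

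Of 12 genes of glutamine and glutamate handling listed beside Gls2, 1 passed the test in females and 2 in males, and 3 in each with DESeq2. Slc38a2, an amino acid transporter, fell in both (-1.06 ± 0.18, adjusted p = 0.00107, and -0.80 ± 0.18, adjusted p = 0.00722). Glul, the pericentral glutamine synthetase, rose in males from 892 ± 200 to 1781 ± 221 CPM (1.00 ± 0.19, adjusted p = 0.00272). In females Glul read 1164 ± 85.1 and 1267 ± 333 CPM (0.12 ± 0.19, adjusted p = 0.714). Replicate 1 of females on the high fat diet read 794 CPM, and replicates 2 to 4 read 1566, 1402 and 1307 CPM. The difference between the diet changes of Glul in females and males did not pass the test (-0.87 ± 0.27, adjusted p = 0.157).

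Aldh1b1, an enzyme of acetaldehyde and other aldehydes, depended most on single libraries. In females Aldh1b1 read 69.2, 64.8, 54.7 and 50.002 CPM on the normal diet and 124, 61.6, 61.8 and 95.1 CPM on the high fat diet. In males it read 29.8, 99.4, 33.1 and 23.8 CPM on the normal diet and 42.7, 54.5, 56.5 and 44.4 CPM on the high fat diet. Replicate 2 of males on the normal diet was far above the other 3 of its group, which all lay below the 4 males on the high fat diet. The male difference with diet was 0.09 ± 0.38 (adjusted p = 0.914), and 0.77 (adjusted p = 0.0398) without that library. Females against males on the normal diet gave 0.36 ± 0.38 (adjusted p = 0.569), and 1.05 (adjusted p = 0.00638) without it. On the high fat diet all females lay above all males, by 0.79 ± 0.38 (95% interval -0.04 to 1.61, adjusted p = 0.160). Fitted on the 2 high fat diet groups alone, that difference passed the test (0.82 ± 0.23, adjusted p = 0.0399). With diet in females the difference was 0.52 ± 0.38 (adjusted p = 0.412). Of 12 other aldehyde dehydrogenases, 1 was called with diet in females, Aldh1a7, which fell (-0.63 ± 0.15, adjusted p = 0.0132, lost in 4 of 16 alternatives). In males edgeR called 0 of 12, with 1 at an unadjusted p under 0.05, and DESeq2 called 0. Aldh2, the main mitochondrial enzyme of this kind, was not called (0.00 ± 0.12 in females, 0.17 ± 0.12 in males).

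Hsd17b13, whose protein sits on lipid droplets, was not called in any comparison. In females it read 408, 418, 395 and 341 CPM on the normal diet and 549, 353, 354 and 432 CPM on the high fat diet. In males it read 469, 601, 433 and 418 CPM on the normal diet and 353, 442, 464 and 318 CPM on the high fat diet. The groups overlapped in both sexes, with females on the high fat diet the more scattered. The log2 differences were 0.11 ± 0.16 in females (95% interval -0.23 to 0.45) and -0.28 ± 0.16 in males (-0.62 to 0.06, adjusted p = 0.270). The difference between them was 0.40 ± 0.23 (adjusted p = 0.494). Of 16 short chain dehydrogenase and lipid droplet genes listed beside it, 14 were tested. In females 1 rose (Dhrs3, a retinal reductase, 0.55 ± 0.11, adjusted p = 0.00537) and 4 fell, among them Hsd17b7, of cholesterol synthesis (-1.40 ± 0.23, adjusted p = 0.00155). In males Plin2, a lipid droplet coat protein, rose (0.81 ± 0.20, adjusted p = 0.0161, lost without replicate 1 of the normal diet group) and 2 fell, Hsd17b6 (-0.89 ± 0.22, adjusted p = 0.0153, lost in 3 of 16 alternatives) and Pnpla2. Pnpla2, the triglyceride lipase, fell in both sexes (-0.58 ± 0.13, adjusted p = 0.00713, and -0.74 ± 0.13, adjusted p = 0.00116), though the female call was lost on the TPM scale. Hsd17b11, the closest relative of Hsd17b13, was not called (-0.23 ± 0.14 in females and 0.02 ± 0.14 in males).

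Cdh1 was the least abundant of the set and was lower in females than in males on the normal diet without passing the test. In females Cdh1 read 16.9, 19.4, 19.2 and 21.6 CPM on the normal diet and 30.03, 21.6, 22.8 and 22.6 CPM on the high fat diet. In males it read 26.9, 46.7, 30.4 and 28.3 CPM on the normal diet and 35.8, 16.02, 19.4 and 47.1 CPM on the high fat diet. The female diet groups did not overlap, by a narrow margin, and males on the high fat diet split into a high pair (replicates 1 and 4) and a low pair (2 and 3). All females on the normal diet lay below all males on it, by -0.78 ± 0.28 (95% interval -1.37 to -0.19, adjusted p = 0.0689). This passed the test with DESeq2 (adjusted p = 0.0223), with only those groups fitted (0.00725) and with the close pair of male libraries averaged (0.0438). The diet differences were 0.33 ± 0.28 in females (adjusted p = 0.472) and -0.17 ± 0.28 in males (adjusted p = 0.746), the latter 0.01 with the close pair averaged. Of 10 genes of adherens and tight junctions listed beside Cdh1, 2 rose in each sex. Cldn1, a tight junction protein, rose from 26.2 ± 4.77 to 60.5 ± 11.7 CPM in females (1.20 ± 0.18, adjusted p = 0.000451) and from 32.0 ± 8.35 to 82.3 ± 3.43 CPM in males (1.36 ± 0.18, adjusted p = 0.000154). Cgn, which encodes cingulin, rose by 0.60 ± 0.17 (adjusted p = 0.0265) and 0.55 ± 0.17 (adjusted p = 0.0392), and lost its female call in 3 and its male call in 9 of 16 alternatives. Ctnnb1, the beta-catenin that binds E-cadherin, was not called by edgeR (0.17 ± 0.10 in females, adjusted p = 0.260, and 0.10 ± 0.10 in males). On log2(TPM + 1) with limma the female value of Ctnnb1 passed the test (0.41 ± 0.11, adjusted p = 0.0194).

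Bile duct cells also make E-cadherin. The summed level of 6 cholangiocyte markers was 51.1 to 68.8 CPM in females on the normal diet, 47.7 to 81.5 CPM in females on the high fat diet, 47.1 to 61.4 CPM in males on the normal diet and 48.9 to 90.0 CPM in males on the high fat diet. None of the 6 was at 0 everywhere. The 5 of them that were tested had a median log2 fold change with diet of -0.31 in males. Of these, Krt19 fell there (-1.52 ± 0.35, adjusted p = 0.0093), so the sum does not speak for each marker. In males on the high fat diet the sum was 90.0 and 85.8 CPM in the replicates 1 and 4 that were high for Cdh1. It was 53.9 and 48.9 CPM in replicates 2 and 3. Over all 16 libraries Pearson's r of log2 values was 0.26, and 0.49 after taking out group means. With group means out, Cdh1 also had r = 0.62 with the summed macrophage markers and -0.52 with the hepatocyte sum, so the relation is not particular to bile duct markers. Their part in the Cdh1 values was not tested.

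Ctsc, the lysosomal protease, was not called with diet. In females Ctsc read 179, 218, 177 and 189 CPM on the normal diet and 178, 213, 229 and 216 CPM on the high fat diet. In males it read 109.7, 179.8, 166 and 141 CPM on the normal diet and 195, 96.6, 94.0 and 171 CPM on the high fat diet. The groups of each sex overlapped, and the same replicates 2 and 3 were the low pair among males on the high fat diet. The diet differences were 0.13 ± 0.21 in females (adjusted p = 0.717) and -0.10 ± 0.21 in males (adjusted p = 0.794), the latter 0.04 with that pair averaged. Females against males on the high fat diet gave 0.59 ± 0.21 (95% interval 0.15 to 1.02, adjusted p = 0.0527), with 3 of 4 females above all males. It passed the test in 6 of 16 alternatives, among them DESeq2 (adjusted p = 0.0202). Of 12 genes of other cathepsins and lysosomal partners, 0 were called in females by edgeR, with 2 at an unadjusted p under 0.05 and 2 called by DESeq2. In males 1 was called, Ctso (0.35 ± 0.11, adjusted p = 0.0447, lost in 10 of 16 alternatives).

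Macrophages carry much Ctsc. The summed level of 8 macrophage markers was 270.3 to 391 CPM in females on the normal diet, 448 to 651 CPM in females on the high fat diet, 252 to 393 CPM in males on the normal diet and 223 to 447 CPM in males on the high fat diet. None of the 8 was at 0 everywhere. In females 3 of the 8 rose with diet (6 with DESeq2), with Cd68 by 0.90 ± 0.16 (adjusted p = 0.00193), Csf1r by 0.60 ± 0.16 (adjusted p = 0.0183) and Cd5l by 0.82 ± 0.25 (adjusted p = 0.0421). In males 1 of the 8 rose (1 with DESeq2), Cd68 by 0.63 ± 0.16 (adjusted p = 0.0183), the only 1 with an unadjusted p under 0.05. The median log2 fold change of the 8 was 0.73 in females and 0.09 in males. Of 16 alternatives, 2 lost the call of Csf1r, 7 that of Cd5l and 2 that of Cd68 in males. On the high fat diet 5 of the 8 were higher in females than in males, where 20.4% of all tested genes were called in either direction. Pearson's r between log2 Ctsc and the log2 sum was 0.78 over the 16 libraries, and 0.78 after taking out group means. Both values count the close pair, replicates 2 and 3 of males on the high fat diet, as 2 libraries. With group means out, Ctsc also had r = -0.74 with the hepatocyte sum, 0.67 with the cholangiocyte sum and 0.48 with the endothelial sum. The libraries share their depth and scaling, so this is a description only, and the part of macrophages in the Ctsc values was not tested.

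**Figure D3:**
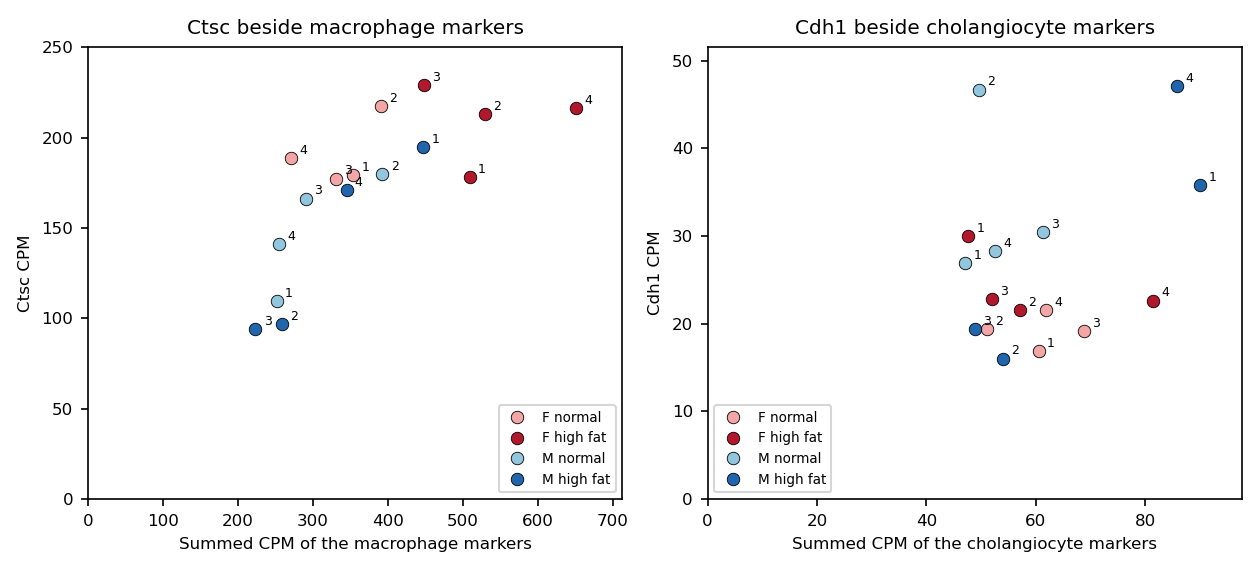
Left, Ctsc CPM against the summed CPM of 8 macrophage markers; right, Cdh1 CPM against the summed CPM of 6 cholangiocyte markers, 1 point per library coloured by group (F females, M males) and labelled with its replicate number. Ctsc is lowest in replicates 3 and 2 of males on the high fat diet (94.0 and 96.6 CPM), where the macrophage sum is 223 and 259 CPM, and Cdh1 has no such order across groups.

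Between the sexes, 1 of the 8 genes passed the test on the normal diet (Cyp2f2, lower in females), where 15.7% of all genes did. On the high fat diet 2 of the 8 passed (Cyp2f2 lower and Gls2 higher in females), where 20.4% of all genes did. The groups did not overlap for 2 of the 8 on the normal diet (Cyp2f2 and Cdh1), beside 22% of all genes. On the high fat diet this held for 3 of the 8 (Cyp2f2, Gls2 and Aldh1b1), beside 22.7%. Here too, counts of 1 to 3 of 8 say nothing particular to the set.

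Inside the groups the 8 genes did not move as one block. Taking each library's log2 CPM minus its group mean, Hal, Gls2, Aldh1b1, Hsd17b13 and Sds went up and down together, with Pearson's r from 0.65 to 0.94 in their 10 pairs over 16 libraries. The highest was Hal with Gls2. These 5 were singled out after their values were seen, they share libraries and scaling, and no test is given. Without replicate 2 of males on the normal diet the 10 values ran from 0.42 to 0.90. The close pair of males on the high fat diet counts as 2 libraries in these values. Cyp2f2 had r between -0.21 and 0.34 with the other 7 genes. Cdh1 and Ctsc had r = 0.75 with each other, 0.37 without the males on the high fat diet, and between -0.43 and 0.27 with the 5. Before group means were taken out, the 10 values of the 5 genes ran from 0.17 to 0.87.

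**Figure D4:**
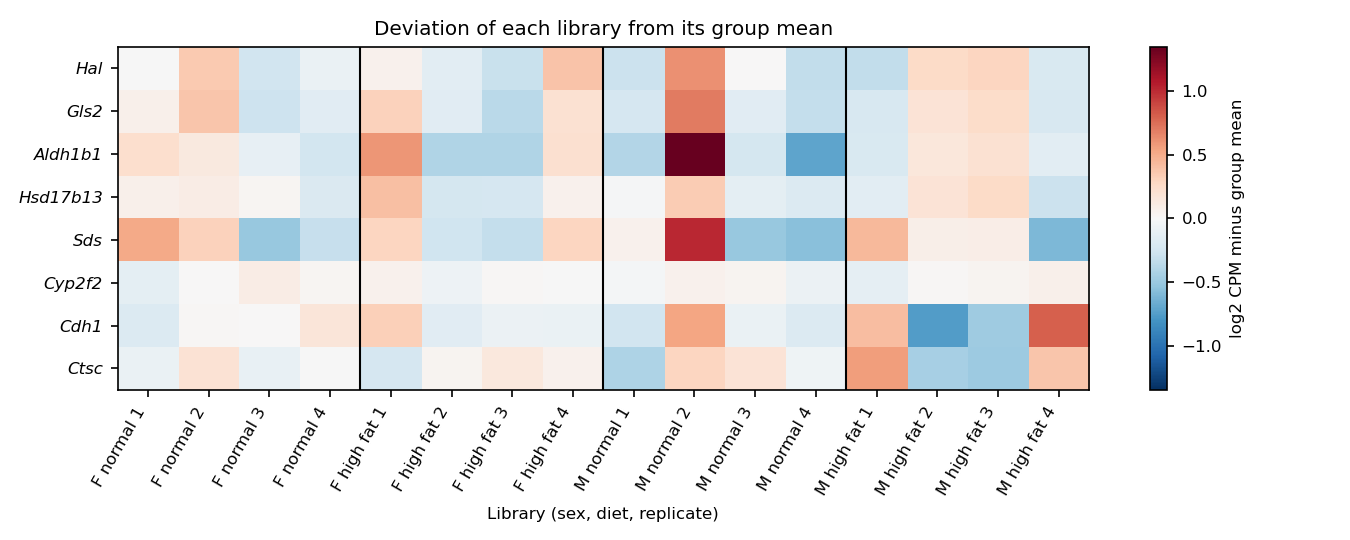
Log2 CPM of each of the 8 genes (rows) minus the mean of its group, in the 16 libraries (columns, 4 groups split by lines; F females, M males); red is above and blue below the group mean. Hal, Gls2, Aldh1b1, Hsd17b13 and Sds share their colours in most columns and are red together in replicate 2 of males on the normal diet, Cyp2f2 stays pale, and Cdh1 and Ctsc share the split of males on the high fat diet.

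The 2 libraries with the most high values differed in the other zone too. Replicate 2 of males on the normal diet was the highest of its group for 14 of 24 other periportal genes and the lowest for 15 of 20 pericentral genes, beside 23.2% and 23.9% of all genes. Replicate 1 of females on the high fat diet was the highest of its group for 5 of the 8 and the lowest for 15 of 20 pericentral genes. That library was the highest of its group for 30.2% of all genes and the lowest for 37.1%. Of the 24 other periportal genes it was the highest for 6 and the lowest for 10. These are single libraries, and no cause was tested.

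The genes most like each member over the 16 libraries, out of 10826 that averaged a log2 CPM of 1 or more, were as follows, as a description. For Cyp2f2 they were Tmc7 (r = 0.97) and Pdhx (0.96), for Sds they were Arg1 (0.94), the urea cycle arginase, and Got1 (0.89), and for Gls2 they were Hgd (0.91) and Parp6 (0.90). For Hal they were Nicn1 and Aldh1b1 (both 0.87), for Aldh1b1 they were Mmd2 (0.88) and Gm37305 (0.87), and for Hsd17b13 they were 2310061I04Rik (0.84) and Gas2 (0.83). For Ctsc they were Trf and Folr2 (both 0.91), and for Cdh1 they were Slc3a1 and Gnat1 (both 0.88). With group means taken out, Ass1 of the urea cycle came first for Hal (0.95) and after Hal for Gls2 (0.93), and Arg1 (0.93) and Agxt (0.92) were the closest to Sds. Aldh1b1 was then nearest to Gls2 (0.91) and Cbs (0.91), and Hsd17b13 to 2310061I04Rik and Rab29 (both 0.90). Cyp2f2 was nearest to Spg7 and Pdcd4 (both 0.87), Ctsc to Il13ra1 (0.96) and Serpina3n (0.94), and Cdh1 to C9 and Tmem268 (both 0.92). A match between groups can rest on the group means alone. The number of genes that reached r of 0.8 fell when group means were taken out for Cyp2f2 (386 to 9), Aldh1b1 (34 to 24) and Sds (32 to 23). It rose for Ctsc (18 to 133), Cdh1 (23 to 51), Hsd17b13 (2 to 36), Hal (14 to 21) and Gls2 (16 to 19). The cause of these shifts was not tested.

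Other genes of the same zone show how Cyp2f2 sits among its neighbours. Of 24 other periportal hepatocyte genes, 1 rose and 6 fell in females (median log2 fold change -0.36), and 1 rose and 3 fell in males (median -0.06). DESeq2 called 8 in females and 9 in males, against 7 and 4. Of all tested genes, edgeR called 11.5% in females and 11.4% in males. Tat, which starts tyrosine breakdown, fell in both sexes (-1.81 ± 0.19, adjusted p = 1.63e-05, and -1.42 ± 0.19, adjusted p = 0.000125). Pck1, of glucose synthesis, and Tdo2, of tryptophan breakdown, also fell in both, Pck1 by -1.34 ± 0.20 in females (adjusted p = 0.000384) and Tdo2 by -0.89 ± 0.18 in males (adjusted p = 0.00351). Asl and Cps1 of the urea cycle fell in females. Their male values were -0.29 ± 0.16 (adjusted p = 0.235) and -0.39 ± 0.13 (adjusted p = 0.0665). The difference between the sexes did not pass the test for either (adjusted p = 0.553 and 0.827). Mfsd2a, a lysolipid transporter, fell in females (-1.97 ± 0.26, adjusted p = 0.000283) and read 39.8 ± 6.49 and 50.2 ± 19.6 CPM in males, and the difference of these changes passed the test (-2.30 ± 0.36, adjusted p = 0.00629). Apoa4, a lipoprotein protein, was the 1 gene that rose in both, in males by 2.70 ± 0.45 (adjusted p = 0.00208). Of 20 pericentral genes, 4 rose and 1 fell in females (median 0.10), and 5 rose and 1 fell in males (median 0.26). The Wnt target Lgr5 rose in both (1.29 ± 0.21, adjusted p = 0.000949, and 0.98 ± 0.21, adjusted p = 0.00628) from group means of 3.23 and 3.65 CPM. In females the transporter Slc1a4 rose (2.24 ± 0.28, adjusted p = 9.18e-05) and Cyp27a1, a sterol hydroxylase, fell (-0.74 ± 0.17, adjusted p = 0.00946). In males Lhpp fell (-0.55 ± 0.12, adjusted p = 0.00783). Male values were 0.66 ± 0.27 for Slc1a4 (adjusted p = 0.121) and -0.30 ± 0.17 for Cyp27a1 (adjusted p = 0.272). Lhpp gave -0.15 ± 0.12 in females (adjusted p = 0.465). The difference of the diet changes passed the test for 0 of the 20 pericentral genes. Cyp2e1, a standard pericentral marker, was not called (-0.22 ± 0.18 in females, 0.35 ± 0.18 in males).

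**Figure D5:**
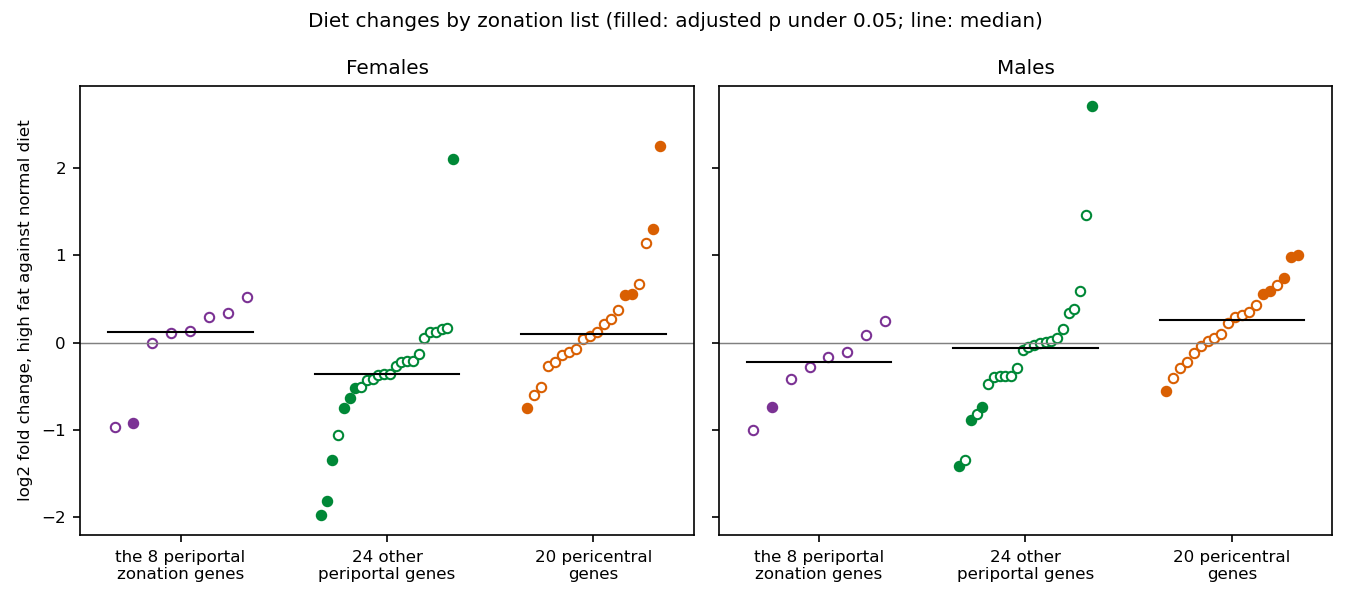
Log2 fold change with the high fat diet (vertical axis) of the 8 genes, 24 other periportal and 20 pericentral genes, ordered by size within each list, in females (left) and males (right); filled points have an adjusted p under 0.05 and lines are medians. The 8 have 1 filled point in each sex (Cyp2f2), and the other periportal genes have 7 in females and 4 in males.

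Of 20 regulators of zonation, 3 rose and 2 fell in females and 2 rose and 1 fell in males. Over all tested genes 11.5% and 11.4% were called. Hnf4a, the hepatocyte nuclear receptor, fell from 557 ± 10.1 to 369 ± 42.4 CPM in females (-0.60 ± 0.12, adjusted p = 0.00331) and from 702 ± 103 to 508 ± 18.8 CPM in males (-0.47 ± 0.11, adjusted p = 0.0139), and both calls were lost on the TPM scale, the male one also without replicate 3 of the normal diet. Foxo1, a target of insulin signalling, fell in females (-1.01 ± 0.15, adjusted p = 0.000382), where Hes1, a Notch target, rose (0.80 ± 0.19, adjusted p = 0.0125). Male values were -0.30 ± 0.15 for Foxo1 (adjusted p = 0.204) and 0.14 ± 0.20 for Hes1 (adjusted p = 0.687). In males the Notch ligand Jag1 rose (1.00 ± 0.24, adjusted p = 0.0135, lost without replicate 4 of the high fat diet), as did Rspo3, which strengthens Wnt signals (0.52 ± 0.15, adjusted p = 0.0321, lost in 8 of 16 alternatives). Female values were 0.20 ± 0.25 for Jag1 (adjusted p = 0.639) and 0.24 ± 0.15 for Rspo3 (adjusted p = 0.317). The difference between the diet changes of females and males passed the test for 0 of the 20 regulators. Gcgr, the glucagon receptor, was not called by edgeR in either sex (0.25 ± 0.10 in females, adjusted p = 0.121, and -0.02 ± 0.10 in males). On log2(TPM + 1) with limma the female value of Gcgr passed the test (0.48 ± 0.09, adjusted p = 0.00315), on a scale where the median of all genes shifted by 0.15. Whether any of these regulators acts on the 8 genes was not tested.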

How the data were processed

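Libraries of poly(A) RNA were prepared (NEBNext Ultra) and sequenced on a NovaSeq instrument, per the labels' protocols. The submitters' processing notes name STAR, RSEM and build GRCm39. The authors deposited RSEM expected counts (4.89% of entries were not whole) and TPM, which divides by effective length and sums to a fixed total. Neither strand use nor the hour of collection is given in the sources used here. Symbols were matched by identifier for 51487 of 78317 genes (98.97% of counts).

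Expected counts were rounded and filtered with filterByExpr of edgeR 4.0.16 (R 4.3.3), which kept 14781 genes. All 16 libraries were fitted with 1 mean per group by the robust quasi-likelihood test with TMM scaling. Tests were two-sided, and a gene was called at an adjusted p (Benjamini-Hochberg over all tested genes) under 0.05. SEs are the log2 fold change over the root of the F statistic. CPM is TMM-scaled. Per-gene depth sets precision, and intervals cover the spread of these libraries. DESeq2 1.42.0 and limma 3.58.1 on log2(TPM + 1) and log2(TPM + 0.1) served as alternatives, beside other size factors, no filter, fewer groups, a replicate block and left-out libraries.

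The members, the gene lists and the tests were chosen with earlier results of these data known. Genes named besides the 8 are the 3 called genes of smallest p of each list and diet comparison, the 2 genes most like each member, and Glul, Cyp2e1, Hnf4a, Ctnnb1, Gcgr, Hsd17b11, Sdsl and Aldh2. A gene that this rule chose is not reported here. Other genes were named to list the members of a count. Of 10 marker lists, those for hepatocytes, cholangiocytes and macrophages are given beside the results and the other 7 in the closing section. Some correlations with the endothelial and stellate sums also stand beside the results. Exon overlaps come from an older GENCODE annotation and promoters from RefSeq (GRCm38.p6), matched by symbol. Replicate numbers were checked as pairs and do not pair the samples.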

Additional observations from a re-analysis of the deposited data

Results flagged for a closer look

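Of the 32 groups of 4 libraries formed by the 8 genes, 3 held a library that stood apart from the other 3 by more than Dixon's 95% critical value for the gap over the range. Chance flags about 1 in 20 groups, and over all tested genes and groups 5.98% stood out. Replicate 2 of males on the normal diet stood out for Gls2, at 424 CPM where the others read 209 to 236 CPM, and for Aldh1b1, at 99.4 CPM where the others read 23.8 to 33.1 CPM. Replicate 1 of females on the high fat diet stood out for Cdh1, at 30.03 CPM where the others read 21.6 to 22.8 CPM.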

How the results depend on the processing

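Cyp2f2 kept its direction and its call in 16 of 16 alternatives of each of 4 comparisons, with log2 fold changes from -0.95 to -0.68 for diet in females and from -0.77 to -0.66 in males. The count of the 8 genes called became 2 in females with only the compared groups fitted, and 1 to 2 in males with a library left out. Females against males gave 2 on the normal diet with DESeq2, with only the groups compared and with male replicates 2 and 3 averaged, and 1 to 2 with a library left out. On the high fat diet it gave 3, against 2, with relative log expression size factors, DESeq2, only the groups compared and both TPM scales, 1 with no filter, and 1 to 2 with a library left out. Over all genes, diet in females called 2926 on log2(TPM + 1) and 2763 on log2(TPM + 0.1), against 1700. There the median of all genes shifted by 0.15 and 0.22 and the split was 2644 higher to 282 lower, against 848 to 852, so TPM values are best read against that shift. The median shifted by 0.10 and 0.15 for females against males on the high fat diet (2957 higher to 753 lower on log2(TPM + 1), against 1306 to 1716), and by 0.11 and 0.15 for the difference between the sexes. That difference called 337 genes with DESeq2 and 58 with the pair averaged, against 100. Diet in males called 1177 genes with the pair averaged, against 1684, and 1 of the 8 in both. Females against males on the high fat diet called 1958 with only those groups fitted, against 3022. With a library left out the counts ran from 947 to 1647 (diet in females), 1113 to 1912 (diet in males), 51 to 176 (their difference), 1325 to 2488 (sex, normal diet) and 1974 to 3019 (sex, high fat diet).

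Signs turned only for values that were not called. Gls2 with diet in females was 0.0227 under the replicate block and 0.23 and 0.23 on the TPM scales. With the pair averaged, the male diet values of Cdh1, Ctsc and Hsd17b11 were 0.0138, 0.0419 and -0.0565. Cdh1 between the sexes on high fat diet was 0.00832 on log2(TPM + 0.1), Gcgr in males 0.0677 and 0.0688 and Hsd17b11 in females 0.00947 and 0.00951 on the TPM scales, and Hsd17b11 in males -0.00112 under the block. The cause was not tested. With a library left out, values ran from -0.12 to 0.14 (Gls2, diet in females), -0.48 to 0.0403 (Cdh1, diet in males), -0.49 to 0.0325 (Cdh1, sex on high fat diet), -0.14 to 0.77 (Aldh1b1, diet in males), -0.32 to 0.0465 (Ctsc, diet in males), -0.0384 to 0.20 (Hsd17b13, diet in females), -0.0524 to 0.21 (Hsd17b13, sex on high fat diet), -0.0816 to 0.0713 (Gcgr, diet in males), -0.0573 to 0.12 (Hsd17b11, diet in males), -0.27 to 0.38 (Sdsl, diet in females) and -0.0221 to 0.0456 (Aldh2, diet in females). For the difference of the diet changes they ran from -0.17 to 0.20 (Hal), -0.40 to 0.25 (Sds) and -0.23 to 0.67 (Aldh1b1).

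The samples share only a replicate number. Of 24 same-numbered pairs, 2 had deviations correlated above 0.1 (range -0.18 to 0.12), and 2 of 16 libraries were closest to their own number. With the replicate block 1864, 1980, 101, 2685 and 3445 genes were called (diet in females, diet in males, their difference, sex on normal and on high fat diet), and 1, 1, 0, 1 and 2 of the 8. Depth limits Cdh1 most, with 455 to 1637 counts.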

Other observations

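The other 7 marker lists are given here as values. In females S100a8, 1 of 2 tested neutrophil markers, and Col1a1, 1 of 6 stellate cell markers, rose with the high fat diet (2.51 ± 0.74, adjusted p = 0.0343, and 1.61 ± 0.45, adjusted p = 0.0318), calls lost in 7 of 15 and 7 of 16 alternatives. The neutrophil sum of females was at most 0.52 CPM on the normal diet and 2.60 CPM, in replicate 1, on the high fat diet. Replicates 2 to 4 of that group read 0.90 to 0.96 CPM. Of the 6 stellate cell markers, 2 in females and 4 in males had an unadjusted p under 0.05. DESeq2 called 2 of these 6 in each sex, and edgeR called 0 in males. The median log2 fold change of the stellate list was 0.36 in females and 0.41 in males. In males Cfd, 1 of 2 tested adipocyte markers, rose (4.07 ± 1.04, adjusted p = 0.0236, lost in 9 of 16 alternatives), and its list summed to at most 10.8 CPM. Of the T and NK cell, endothelial, pancreatic acinar and red blood cell lists, 0 members were called with diet in either sex by edgeR. At an unadjusted p under 0.05 there were 0, 1, 0 and 1 in females and 0, 1, 1 and 1 in males, and DESeq2 called 1 red blood cell marker in males. Of the lists set beside results, Krt19, a cholangiocyte marker, fell in males (-1.52 ± 0.35, adjusted p = 0.0093), as did the hepatocyte marker Alb (-0.50 ± 0.14, adjusted p = 0.0303, lost in 7 of 16 alternatives).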
